A study of Mus musculus with 5 samples.

Results

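Estrogen receptor α (ERα) occupies part of its sites in the mouse uterus even when little estradiol is present, and most of these sites are found again after the hormone is given. The sites described here are those found in both conditions at which the vehicle peak, not the estradiol peak, was the longer of the pair. They were taken from the authors' lists of ERα peaks, on the mouse build mm9. A vehicle peak had to overlap exactly 1 estradiol peak by at least 1 bp, that estradiol peak had to overlap no other vehicle peak, and only autosomes were used. Of 3550 such one-to-one sites, 888 had the longer vehicle peak. Another 2649 (74.6%) had the longer estradiol peak and 13 had peaks of equal length.

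The series holds 5 samples of uterine chromatin from wild-type C57BL/6J mice, of which the 2 ERα libraries were used. All mice had their ovaries removed, and 10 to 14 days later they received an intraperitoneal injection of saline vehicle or of 250 ng of estradiol in the same way. Uteri were taken 1 hour after the injection. ERα was precipitated with the antibody sc-542 in both. The labels give neither the age of the mice nor how many contributed to a library. The whole uterus holds epithelium, stroma and smooth muscle, so a site bound in more cells and a site bound more strongly in each cell cannot be told apart in these lists. Neither the libraries of RNA polymerase II nor the input library entered this description.

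ERα is a nuclear receptor that binds DNA directly at estrogen response elements, or indirectly through other factors already on the DNA. Without hormone, part of the receptor is already in the nucleus and on chromatin. Estradiol changes the shape of its ligand-binding domain, favours recruitment of coactivators and increases its occupancy at many sites within an hour. In the uterus this leads to early transcription of growth-related genes and later to proliferation of the epithelium. A peak is a stretch of genome where a calling program found more reads than it required. Its length depends on the spread of the fragments, on how far the signal stands above the threshold and on the number of reads.

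Each condition rests on 1 library, so the differences below are between 2 libraries, with no replicate check and no p-value. There were 5184 vehicle and 17240 estradiol peaks in all. The lists hold no height, score or read count, so the sequencing depth behind them is unknown. Intervals given with shares are 95% Wilson intervals, and those of medians are exact binomial intervals of the order statistics. Both cover counting error only, and they treat sites as independent, which neighbouring sites are not. Peaks were not assigned to genes and no sequence is printed, because the gene and promoter tables at hand are on another build (GRCm38) and no mm9 sequence was used here. The sites are therefore named by position.

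The sites were chosen by the lengths of their 2 peaks, so lengths are given as a description. The share of one-to-one sites with a longer vehicle peak was 25.0% (23.6 to 26.5). Vehicle peaks at the 888 sites had a median length of 267.5 bp (quartiles 220 and 333 bp, range 112 to 883 bp). The estradiol peaks that they met had a median of 212 bp (quartiles 169.75 and 270 bp, range 100 to 678 bp). For scale, the median over each whole list was 207 bp for vehicle and 242 bp for estradiol. Over all 3550 one-to-one sites, the class included, the medians were 230 bp for vehicle and 305 bp for estradiol. On either scale the vehicle peaks here were longer than the median vehicle peak, and their estradiol partners were shorter than the median estradiol peak. At the 2649 sites with the longer estradiol peak the medians were 217 bp for vehicle and 334 bp for estradiol.

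Most of the differences were small. The vehicle peak exceeded its partner by a median of 45 bp (quartiles 20 and 84 bp), and the median length ratio was 1.21 (1.19 to 1.23). Chromatin had been sheared to an average of 300 to 500 bp, per the labels, so the median difference is shorter than 1 fragment. A vehicle peak at least 1.5 times as long was found at 186 sites (5.24% of the one-to-one sites) and at least 2 times at 35 (0.986%). Only 2 sites passed 3 times, or 0.0563%. In the mirror direction the estradiol peak was at least 1.5 times as long at 1282 sites (36.1%), at least 2 times at 620 (17.5%) and at least 3 times at 172 (4.85%). Large differences were thus fewer toward vehicle than toward estradiol, in number and as a share of each class: 20.9% of the sites with a longer vehicle peak and 48.4% of those with a longer estradiol peak passed 1.5 times.

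**Figure D1:**
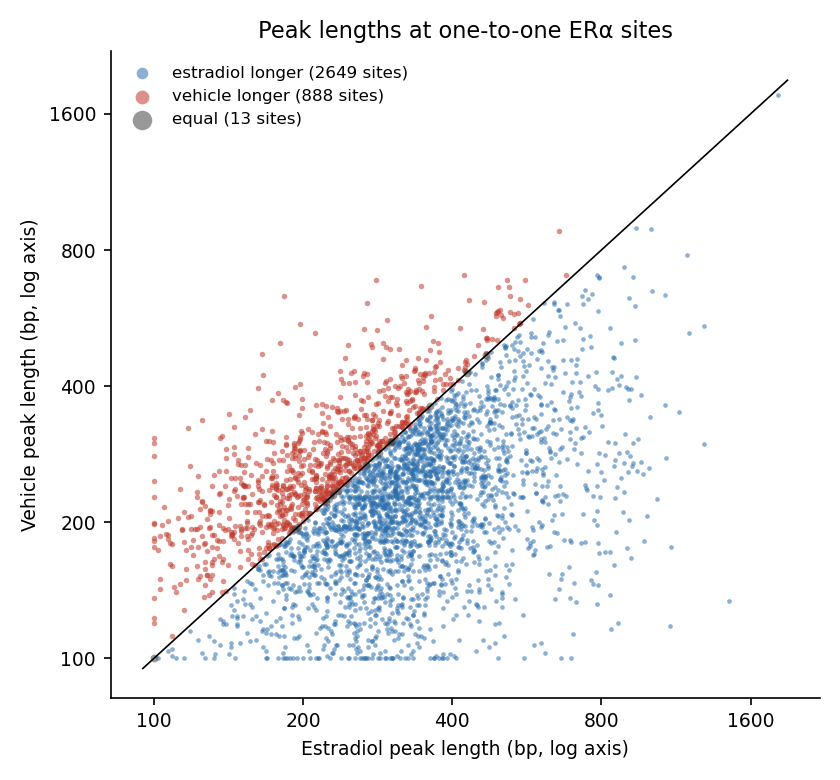
Length of the vehicle peak (vertical axis, bp, log scale) against length of the estradiol peak (horizontal axis, bp, log scale) at 3550 one-to-one autosomal ERα sites, 1 point per site. The black line marks equal length. The 888 sites above it have the longer vehicle peak and lie mostly close to the line, while the 2649 sites below it spread further from it.

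Where the line is drawn matters for sites near it. The vehicle peak was longer by exactly 1 bp at 11 sites and by 2 bp at 16, lengths were equal at 13, and the estradiol peak was longer by 1 bp at 7 and by 2 bp at 12. Just inside, at chr1:52211731-52211973, the vehicle peak measured 243 bp and the estradiol peak 242 bp. Just outside, at chr4:105129618-105130228, the vehicle peak measured 611 bp and the estradiol peak 612 bp. Between them, at chr10:39358644-39359071, both measured 428 bp, although the estradiol peak lay 37 bp to the left. Requiring a difference of at least 50 bp left 417 sites (11.7% of the one-to-one sites), against 2032 (57.2%) in the mirror direction. The count also depends on scale, since estradiol peaks were longer in general. After division of each length by the median of its own list, the vehicle peak was the longer at 1391 sites (39.2%), and by percentile rank within the list at 1406 (39.6%).

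The position of the excess within each pair was examined next. At 540 of the 888 sites (60.8%, 57.6 to 64.0) the vehicle peak covered the whole estradiol peak, and at 348 the peaks were staggered, each reaching past the other at 1 edge. It passed both edges at 529 and shared 1 edge exactly at 11. On the wider side the vehicle peak reached a median of 43 bp further (quartiles 25 and 68 bp), and on the narrower side 5 bp. The wider side was the left one, toward lower coordinates, at 428 sites (48.2%, 44.9 to 51.5) and the right one at 455, and both were alike at 5. The midpoints of the 2 peaks lay a median of 17 bp apart (15.5 to 18), the same median as at sites with the longer estradiol peak (17 bp, 16 to 17.5). The length differences behind these equal medians were not alike: at sites with the longer estradiol peak, that peak reached a median of 71 bp further on its wider side and 32 bp on its narrower side.

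Peaks of nearly equal length are staggered wherever they are not aligned, so the classes were compared within ranges of the difference. With a difference of 1 to 20 bp the longer peak covered the shorter at 18.1% (13.6 to 23.6) of sites with a longer vehicle peak and at 31.9% (26.3 to 38.1) of those with a longer estradiol peak. With 21 to 50 bp the shares were 56.8% (50.6 to 62.8) and 66.2% (61.4 to 70.6). Between 51 and 100 bp they were 85.0% (80.2 to 88.8) and 90.0% (87.5 to 92.1), and above 100 bp they were 90.1% (84.3 to 93.9) and 96.6% (95.5 to 97.4). Longer vehicle peaks thus covered their partner at a lower share in each of the 4 ranges, although the intervals meet in the middle ranges. The range above 100 bp has no upper end and holds larger differences in the other class, of which 593 sites differed by at least 200 bp against 28 of the class. Midpoints within these ranges lay a median of 14, 15, 17.5 and 33 bp apart with the longer vehicle peak, against 10, 13, 13.5 and 26 bp with the longer estradiol peak. How far edges of the same site move between replicate libraries was not tested.

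The 10 sites with the largest difference lay on 8 chromosomes. The first was at chr13:29729532-29730165. Its vehicle peak of 634 bp held an estradiol peak of 183 bp, a ratio of 3.46, and reached 351 bp beyond it on the left and 100 bp on the right. Second came a vehicle peak of 688 bp at chr17:81669411-81670098, which held an estradiol peak of 281 bp. This site was remote, with the nearest other estradiol peak 212 kb and the nearest other vehicle peak 72.9 kb away. A vehicle peak of 548 bp at chr4:85419258-85419805 held an estradiol peak of 197 bp, and the nearest other estradiol peak lay 154 kb away. The vehicle peak of 612 bp at chr5:4322673-4323284 had its estradiol partner of 269 bp at its left end. There the vehicle peak ran on for 350 bp past the right edge of the estradiol peak, and the nearest other estradiol peak was 366 kb away. These last 3 sites were the only ones of the 10 with no other estradiol peak within 100 kb.

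The remaining members of this group were of mixed surroundings. A vehicle peak of 666 bp at chr13:101720821-101721486, with an estradiol peak of 346 bp, had another vehicle peak 223 bp and another estradiol peak 267 bp away. The lengths were 498 and 180 bp at chr1:45157905-45158402, 523 and 211 bp at chr9:32454261-32454783, and 471 and 165 bp at chr9:65695790-65696260. At the chromosome 1 site and the first of the chromosome 9 sites the excess lay almost wholly on the right, 311 and 307 bp. A vehicle peak of 703 bp at chr10:5206621-5207323 met an estradiol peak of 423 bp, and a further estradiol peak lay only 89 bp away. The last of the 10, at chr8:124473724-124474258, measured 535 bp against 266 bp, with another estradiol peak 688 bp away. In 9 of the 10 the vehicle peak covered its partner entirely.

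**Figure D2:**
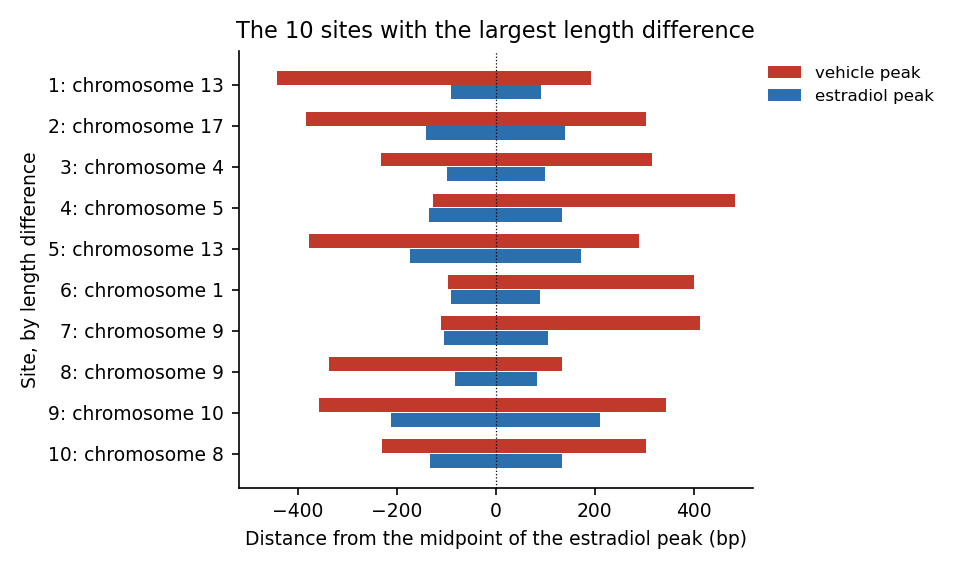
The vehicle peak (red) and the estradiol peak (blue) at the 10 sites with the largest length difference, drawn to scale as distance in bp from the midpoint of the estradiol peak, from the largest difference (site 1, 634 against 183 bp) to site 10 (535 against 266 bp). At site 4 the excess of the vehicle peak lies on the right, 350 bp, and at the other 9 the vehicle peak covers the estradiol peak.

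By ratio, 4 of these sites were again among the first 10, and the other 6 had vehicle peaks of 280 to 424 bp and estradiol peaks of 100 to 166 bp, against list medians of 207 and 242 bp. Estradiol peaks of 100 bp, the shortest length in either list, accounted for 3 of them. They met vehicle peaks of 307 bp at chr2:118345805-118346111 (ratio 3.07), 299 bp at chr4:86257987-86258285 (2.99) and 280 bp at chr6:126060943-126061222 (2.80). At chr19:60015577-60015900 the lengths were 324 and 117 bp, at chr5:43847270-43847605 they were 336 and 125 bp, and at chr13:102415501-102415924 they were 424 and 166 bp. Over all 888 sites, 13 estradiol peaks (1.46%) were at the 100 bp floor and no vehicle peak was. A floor on length sets an upper limit on the ratio at those sites.

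The longest vehicle peaks of the class mostly met long estradiol peaks. The longest, 883 bp at chr14:23579310-23580192, held an estradiol peak of 656 bp. The vehicle peak of 703 bp at chr8:91677093-91677795 held one of 678 bp, and the peaks ended at the same base. Others were 688 against 560 bp at chr10:39349497-39350184, 686 against 517 bp at chr2:118358585-118359270, and 664 against 521 bp at chr10:96148671-96149334. A chromosome 18 site measured 664 against 494 bp. The other 4 of these 10 are the sites on chromosomes 13, 17 and 10 given above. Of the 10, 9 had another vehicle peak and 8 another estradiol peak within 10 kb, against 4 and 3 of the 10 sites with the largest difference. Over the whole class these shares were 28.0% and 34.9%. Among its sites in the highest quartile of vehicle length of all one-to-one sites they were 39.0% and 46.1%.

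Each deposited peak name carries a number, from 1 to the number of peaks in its list, whose meaning the sources used here do not state. Numbers rose as peaks shortened, with a Spearman correlation over peaks of −0.77 for vehicle and −0.88 for estradiol, so they are not independent of the length that chose the sites. Vehicle peaks of the class had a median position at 34.7% of their list, not far from the 39.3% of vehicle peaks at sites with the longer estradiol peak. Their estradiol partners stood at a median of 81.7% of the estradiol list. In the last decile of the one-to-one sites by estradiol number, 81.7% (77.3 to 85.4) had the longer vehicle peak. By vehicle number the share was highest in decile 3, at 34.4%, and 20.8% in the last decile.

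The lowest numbers run in genome order and cannot be read as a ranking among themselves. Among the first 400 vehicle numbers, 91.2% directly followed the previous one along the same chromosome, against 5.54% of later ones, and among the first 5500 estradiol numbers 99.5% did, against 11.1%. Of the 888 sites, 71 lay in this first block by vehicle number and 95 (10.7%) in that of estradiol. In the other class the shares were 11.7% and 65.2%, so most of its estradiol peaks have a number that follows genome order within that block. Whether the block as a whole ranks before the later numbers is not stated in the sources used here. The 5 members with the lowest vehicle numbers were accordingly all on chromosome 8. Their vehicle and estradiol lengths were 300 and 224 bp at chr8:23521666-23521965, 295 and 282 bp at chr8:36883294-36883588, 344 and 324 bp at chr8:36986032-36986375, 314 and 300 bp at chr8:37068620-37068933, and 375 and 332 bp at chr8:80292825-80293199. Only the first of these differed by more than 50 bp. It was also the most remote, with the nearest other vehicle peak 1043 kb away.

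The 5 members with the highest vehicle numbers had vehicle peaks of 140 to 263 bp and estradiol peaks of 124 to 253 bp. They lay at chr11:119464172-119464385 (214 and 124 bp), chr6:38110209-38110400 (192 and 177 bp), chr15:81688658-81688920 (263 and 253 bp), chr7:54263665-54263857 (193 and 141 bp) and chr11:68714934-68715073 (140 and 137 bp). Their estradiol peaks stood at 98.7% or later in the estradiol list, so these sites came late in both. Across the class, paired lengths had a Spearman correlation of 0.80 and paired numbers 0.79. At sites with the longer estradiol peak the correlations were 0.57 and 0.44. The rule keeps either class on 1 side of equal length, which affects these values, and by how much was not tested. Over all 3550 one-to-one sites these were 0.39 and 0.42.

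The rule did not use distances to neighbouring peaks. It did leave out sites at which a peak overlapped 2 peaks of the other list, so the closest neighbours depend in part on the rule. A site with the longer vehicle peak had another estradiol peak within 10 kb in 34.9% of cases (31.8 to 38.1, 310 of 888), against 53.2% (51.3 to 55.1, 1409 of 2649) of sites with the longer estradiol peak. The median distance to the next estradiol peak was 19.8 kb (quartiles 3.65 and 68.0 kb) against 7.79 kb (1.31 and 36.4 kb). By this measure the class stood close to the autosomal vehicle-only peaks, which met no estradiol peak at all and of which 35.8% (33.4 to 38.3, 528 of 1474) had one within 10 kb. These groups were not matched for length: vehicle-only peaks of all chromosomes had a median of 166 bp, vehicle peaks of the class 267.5 bp. The estradiol partner of a site was not counted as its neighbour. Other vehicle peaks showed no such deficit over all sites: 28.0% (25.2 to 31.1) of the class had one within 10 kb, against 24.4% (22.8 to 26.1). Within quartiles of vehicle length the order was mixed. From the lowest quartile, the shares were 25.4% against 19.2%, 18.8% against 21.2%, 21.4% against 26.1% and 39.0% against 34.8%. The intervals meet in every one of these quartiles. Within quartiles of estradiol length the class had the higher share in each.

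The deficit of estradiol neighbours moved with the length of the estradiol peak, which the rule uses. Among sites in the same quartile of vehicle length it was present in each of the 4 quartiles. The shares were 35.2% against 45.8% in the lowest quartile (up to 180 bp), 26.2% against 49.9% in the second, 26.7% against 56.0% in the third and 46.1% against 65.9% in the highest (above 290 bp). The intervals meet in the lowest quartile (25.1 to 46.8 and 42.4 to 49.2). Among sites in the same quartile of estradiol length it was not steady. There the shares were 27.2% (23.6 to 31.1) against 35.1% (30.3 to 40.2) up to 232 bp, 40.7% (34.4 to 47.4) against 35.3% (31.8 to 39.0) up to 305 bp, 47.4% (37.6 to 57.3) against 54.3% (50.8 to 57.8) up to 394 bp, and 70.2% (56.0 to 81.3) against 74.1% (71.0 to 77.0) above it. These intervals meet in all 4 quartiles, and the direction turns in the second. A quartile of either length leaves the other length unmatched between the classes.

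Vehicle-only peaks were the other neighbours examined. Within 10 kb, 115 of the 888 sites (13.0%, 10.9 to 15.3) had a vehicle peak that met no estradiol peak, against 144 of 2649 (5.44%, 4.64 to 6.37) of sites with the longer estradiol peak. The same order held within 1 kb (3.83% against 1.70%), 5 kb (9.23% against 3.47%) and 50 kb (25.6% against 16.6%). Sites with an excess of at least 50 bp had the higher share, 16.8% (13.5 to 20.7), while sites with an estradiol excess of at least 50 bp had 4.33% (3.53 to 5.31). Estradiol-only peaks showed the opposite order over all sites, with 25.0% (22.3 to 28.0) against 45.8% (43.9 to 47.7) within 10 kb. From the lowest quartile of estradiol length, these shares were 19.2% against 27.3%, 29.2% against 29.2%, 31.6% against 45.2% and 57.4% against 67.5%. Their intervals meet in the second and the highest quartile. Within quartiles of vehicle length the class had the lower share of estradiol-only neighbours in each. Leaving out the sites with any other peak within 1 kb lowered both vehicle-only shares, to 8.68% (6.84 to 10.9) and 3.61% (2.88 to 4.52).

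**Figure D3:**
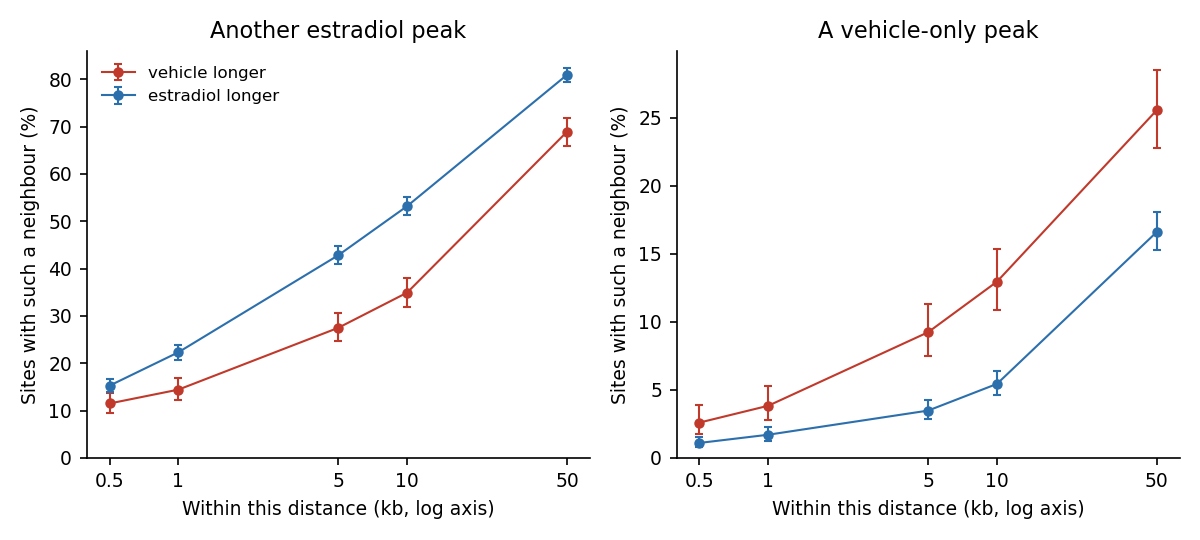
Share of sites (vertical axis, %) with another estradiol peak (left) or with a vehicle peak that met no estradiol peak (right) within the distance on the horizontal axis (kb, log scale), for the 888 sites with the longer vehicle peak (red) and the 2649 with the longer estradiol peak (blue). Bars are 95% Wilson intervals. At 10 kb the red share is the lower on the left (34.9% against 53.2%) and the higher on the right (13.0% against 5.44%).

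The order of the vehicle-only shares was the same within quartiles of either length, but a quartile of either length leaves the other unmatched. At a given estradiol length the rule gives the class the longer vehicle peaks. In the highest estradiol quartile (above 394 bp), every vehicle peak of the class lay in the highest vehicle quartile (above 290 bp). By quartile of estradiol length, the shares with a vehicle-only peak within 10 kb were 11.7% (9.23 to 14.7) against 8.64% (6.15 to 12.0), 12.5% (8.73 to 17.6) against 4.79% (3.41 to 6.68), 15.8% (9.81 to 24.4) against 4.72% (3.44 to 6.44) and 23.4% (13.6 to 37.2) against 5.25% (3.93 to 6.98). The class was the higher in each quartile, and the intervals meet only in the lowest. By quartile of vehicle length the shares were 11.3% against 4.98%, 9.41% against 6.07%, 9.02% against 3.82% and 18.3% against 7.16%, with intervals that meet in the first 2. In either class the share was highest in the highest quartile of vehicle length. The classes cannot be matched for both lengths, because the rule is set by them, so these comparisons do not separate class from length. Whether vehicle-only neighbours are sites of binding or calls close to the caller's threshold was not tested.

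**Figure D4:**
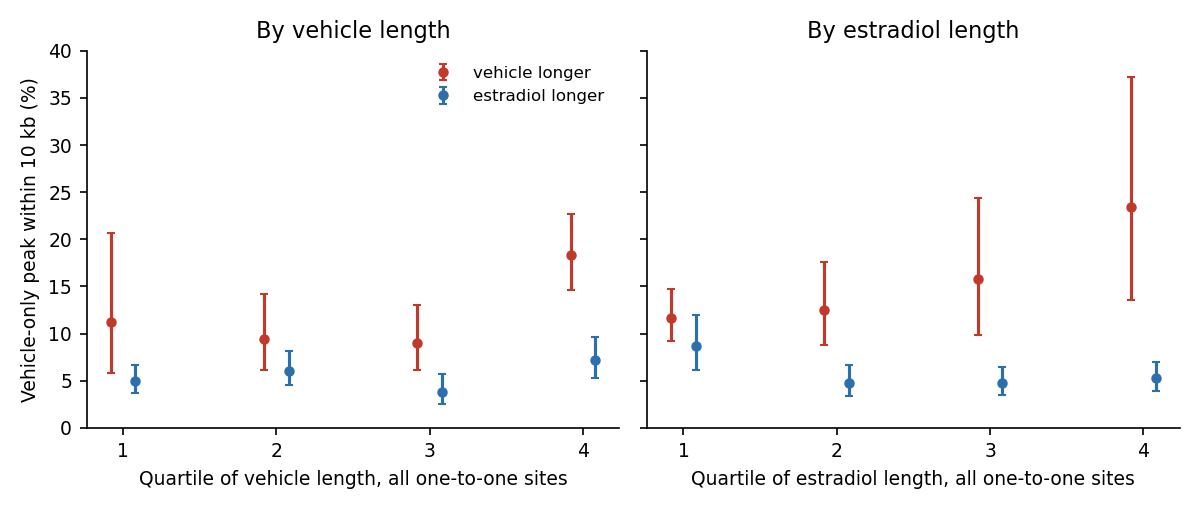
Share of sites with a vehicle-only peak within 10 kb (vertical axis, %) in quartiles of vehicle length (left) and of estradiol length (right), for sites with the longer vehicle peak (red) and with the longer estradiol peak (blue), with 95% Wilson intervals. Red lies above blue in all 8 comparisons, from 11.7% against 8.64% in the lowest quartile of estradiol length to 23.4% against 5.25% in the highest. Within a quartile of either length the other length is not matched between the classes.

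The nearest other one-to-one site was examined next, and for most sites of the class it was not of the class. Of the 157 that had another one-to-one site within 10 kb (midpoint to midpoint), the nearest one belonged to the class in 54 (34.4%, 27.4 to 42.1). From sites with the longer estradiol peak the nearest site belonged to the class in 104 of 528 (19.7%, 16.5 to 23.3), and the class makes up 25.0% of all one-to-one sites. Within 1000 kb the shares were 30.4% (27.4 to 33.6) and 23.1% (21.5 to 24.8). Sites that are each other's nearest are counted from both sides, so these intervals are too narrow. Over the 500 kb on either side, the class had a median of 4 other vehicle peaks and 12 other estradiol peaks, against 4 and 14. Summed over sites the ratio of estradiol to vehicle peaks was 2.69 around the class and 3.34 around the other sites. Vehicle peaks at least equalled estradiol peaks in number around 93 sites of the class (10.5%, 8.63 to 12.7) and around 125 of the others (4.72%, 3.97 to 5.59). These include ties, also where neither list had another peak, and the ties were not counted apart.

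Sites with the longer vehicle peak occurred on every autosome, from 24 on chromosome 16 to 75 on chromosome 2. As a share of the one-to-one sites, the lowest value was 20.3% (14.1 to 28.5) on chromosome 16 and the highest 33.3% (26.1 to 41.5) on chromosome 17. The intervals of 18 of the 19 autosomes held the share of all autosomes, and that of chromosome 17 did not, with 47 of 141 sites. These are the extremes of 19 chromosomes, and the difference was not tested.

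**Figure D5:**
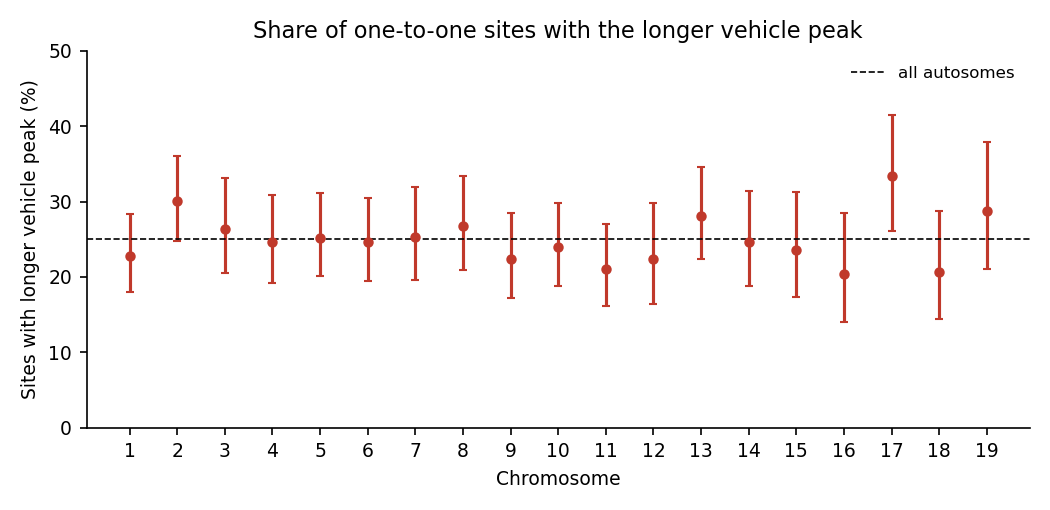
Share of one-to-one sites with the longer vehicle peak (vertical axis, %) on each autosome (horizontal axis), with 95% Wilson intervals. The dashed line marks the 25.0% of all autosomes. Chromosome 17, at 33.3%, is the only one whose interval lies wholly above the line.

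Some stretches of 1 Mb held several members, although 431 of the windows with any one-to-one site held 1 and 720 held none. Chromosome 10 between 96 and 97 Mb held the most, 8 among 18 one-to-one sites, in a window with 27 vehicle and 28 estradiol peaks. Its members had vehicle peaks of 245 to 664 bp, estradiol peaks of 172 to 521 bp and ratios of 1.00 to 1.51. A pair of them stood 260 bp apart, 664 against 521 bp at chr10:96148671-96149334 and 421 against 315 bp at chr10:96149595-96150015. At chr10:96815222-96815574 the lengths were 353 and 234 bp. All 8 had the longer vehicle peak by the rule, but at chr10:96889439-96889812 by only 1 bp.

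Chromosome 12 between 80 and 81 Mb held 7 members among 14 one-to-one sites, with 25 vehicle and 41 estradiol peaks. The largest differences there were 375 against 199 bp at chr12:80608126-80608500 and 488 against 294 bp at chr12:80957479-80957966. A further 2 windows shared the next place with 6 members each. Chromosome 14 between 23 and 24 Mb had 10 one-to-one sites, 24 vehicle and 19 estradiol peaks, and its members included the longest vehicle peak of the class and a site of 459 against 290 bp at chr14:23903378-23903836. Chromosome 12 between 8 and 9 Mb had 9 one-to-one sites, 12 vehicle and 42 estradiol peaks, and its 6 members differed little in length, with a median ratio of 1.08. The 4 windows were picked for holding the most members, so their shares are a description. Members made up 44.4% (24.6 to 66.3), 50.0% (26.8 to 73.2), 60.0% (31.3 to 83.2) and 66.7% (35.4 to 87.9) of their one-to-one sites in the order given, against 25.0% of all one-to-one sites. The first of these intervals holds the share of all sites. Without these 4 windows the share of the class with a vehicle-only peak within 10 kb was 12.5% (10.5 to 14.9), against 5.30% (4.50 to 6.22) in the other class.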

How the data were processed

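ERα ChIP-seq peaks were deposited as 1 list per sample, with chromosome, start, end and a peak name. They hold coordinates and no other unit. Per the file headers the build is mm9, and the submitters' processing notes name mm9 and the software Partek without its role. Aligner, peak caller, settings and use of the input: not given in the sources used here. Printed starts are counted from 1, on the reading that deposited starts count from 0.

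Length was end minus start. Overlaps were found with pandas 2.3.3 and numpy 2.4.6 under Python 3.11.15. They were also counted with bedtools 2.31.1, with the same result (3714 overlaps). Distances to neighbours run from the outer edges of a pair. Intervals came from scipy 1.17.1, figures from matplotlib 3.10.9. Pairing and distance code was tested on simulated data. The members, lists and rules were chosen with earlier results of these data known. Regions named are the 10 with the largest length difference, the 10 with the largest ratio, the 10 with the longest vehicle peak, the 5 lowest and 5 highest vehicle numbers, and the 3 windows richest in members (4 with a tie). The shares with a vehicle-only neighbour and the comparison of nearest sites were added after seeing the data. Length quartiles, ranges of the difference and deciles and blocks of peak numbers were also outside the planned comparisons. So were the counts over 500 kb on either side and the shares by chromosome. Alternatives changed the overlap, the length margin, the scaling, the joining of peaks and the distances.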

Additional observations from a re-analysis of the deposited data

How the results depend on the processing

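The number of sites with the longer vehicle peak stayed within 1.5 times of 888 with an overlap of at least 50% of both peaks, with chromosome X, with neighbouring peaks joined, without 100 bp peaks and without sites that had another peak within 1 kb (726 to 890). It was 417 with a margin of 50 bp, 186 with a ratio of at least 1.5, 315 in the longer part of each list, 1391 with lengths divided by the list median and 1406 by percentile rank. The 50 bp margin also moved the median ratio to 1.45, the share covering the whole estradiol peak to 86.6%, the midpoint distance to 20.5 bp, the share in the first quartile of vehicle numbers to 39.3% from 35.4%, and the share with a vehicle-only neighbour to 16.8%. The first 2 of these follow from the margin by construction. Midpoint distances rose with the length difference and vehicle numbers went with vehicle length, so those shifts are not independent of the margin either. Without the margin, 35.4% (32.3 to 38.6) of the class lay in the first quartile of vehicle numbers. At sites with the longer estradiol peak it was 33.4% (31.7 to 35.3), and these intervals meet. Neighbour shares of the class follow the distance chosen. Within 1, 5 and 50 kb they were 14.4%, 27.5% and 68.9% for estradiol peaks and 3.83%, 9.23% and 25.6% for vehicle-only peaks. At sites with the longer estradiol peak they were 22.3%, 42.8% and 80.9%, and 1.70%, 3.47% and 16.6%. Without sites that had another peak within 1 kb the vehicle-only share within 10 kb was 8.68% against 3.61%. The share with another estradiol peak was then 23.4% against 39.6%. The alternatives for vehicle-only peaks were added after seeing the data. Those on response elements, gene starts and gene lists need mm9 sequence and annotation and were not run. No paired analysis was possible because each condition has 1 library, so none could be left out either, and lengths may differ with read depth, which is unknown.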

Other observations

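Chromosome X, left out above, had 34 one-to-one sites, of which 2 had the longer vehicle peak (5.88%, 95% Wilson interval 1.63 to 19.1). Both were on a stretch of less than 1 Mb. The vehicle and estradiol lengths were 338 and 333 bp from 74212976 to 74213313, and 253 and 200 bp from 74754523 to 74754775 (mm9). The other 32 sites had the longer estradiol peak.

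Autosomal sites that were not one-to-one were few. At 15 sites 1 vehicle peak overlapped 2 estradiol peaks, and the vehicle peak was longer than both together at 7 of them. At 51 sites 1 estradiol peak overlapped 2 vehicle peaks, and the vehicle peaks together were the longer at 11. Some chains of overlapping peaks count in both of these groups, so the groups are not separate sets of sites. The median summed lengths were 509 bp for vehicle and 570 bp for estradiol in the first group, and 529 and 673 bp in the second.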
